A study of Homo sapiens with 6 samples.

Results

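The genes of the kinetochore, the spindle checkpoint and mitotic exit were examined in HT29 colon adenocarcinoma cells treated with NS398. The members were chosen by name, as a list of 54 human genes whose products build the kinetochore, hold or release the spindle checkpoint, or shape the mitotic spindle and its midzone. Of these, 53 genes had at least 1 probe set of their own, 100 probe sets in all, out of 19775 genes and 54675 probe sets. CENPP was found only on a probe set that names another transcript as well, so it was not measured here. The rule uses gene names alone, but the list was drawn up with earlier results of these data known.

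HT29 is an established human colon adenocarcinoma cell line, and NS398 selectively blocks cyclooxygenase-2 (COX2), an inducible enzyme that makes prostaglandins. The 3 NS398 samples came from cells kept for several days in serum-free medium with NS398, at the highest of the doses the study tested. The 3 control samples came from cells of the same line in the same medium with the solvent, DMSO, alone. RNA of each sample was hybridised to 1 HG-U133 Plus 2.0 array. The arrays of a group are biological replicates by the study's account, but the labels give no separate cultures, so the p-values cover only the spread among these samples, which may be technical. All samples derive from 1 cell line under 1 dose and 1 time, and a lower signal in a culture with fewer mitotic cells cannot be told apart from less transcript in each cell.

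At mitosis each centromere, marked by nucleosomes with the histone variant CENPA, recruits a constitutive inner network of CENP proteins. On this network the outer kinetochore assembles, and its Ndc80 complex grips the ends of spindle microtubules. Unattached kinetochores keep the spindle checkpoint on, which inhibits the anaphase-promoting complex (APC/C) by sequestering its activator CDC20. Once all chromosomes are attached, the APC/C marks securin and cyclin B for destruction, separase cuts cohesin, and the midzone proteins organise cytokinesis. Many of these genes are transcribed mainly in the late part of the cell cycle. Their promoters often carry a cell cycle homology region (CHR), an element recognised by the DREAM and MuvB complexes, near a CCAAT box, the element of NF-Y.

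Promoter windows of the RefSeq table (build GRCh38.p14), from 250 bases before to 50 bases after the transcription start, were at hand for 42 of the 54 listed genes. The CHR was searched as TTTGAA or TTCGAA and the CCAAT box as CCAAT, each on both strands. A CHR match lay in a window of 28 of the 42 genes (66.7%), against 19.5% of all 27305 genes with a window. A CCAAT match was found in 33 of 42 (78.6%), against 39.7% of all genes, and both in the same window in 21 of 42 (50%), against 7.85%. An E2F element, searched as TTTGGCGC or TTTCCCGC, was found in 3 of 42 (7.14%), against 2.75% of all genes. Of the CHR matches in the members' windows, 30 of 39 (76.9%) lay within 50 bases of the start, compared with 27.3% of such matches in all windows. Matches were counted per window, so a match shared by overlapping windows of a gene was counted in each. Among genes with a measured probe set, a CHR match was found in 25 of the 36 that passed the test described below and in 3 of the 5 that did not. These matches describe the letters only and are neither sites shown to be used nor a cause of the values below.

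Windows of 4 genes, chosen because they hold a CHR match and lead their role groups by p, are printed to show how these elements sit. The leader of the centromere group, CENPU, has no CHR match in its window and is not printed. The printed windows have their CHR and CCAAT matches on either strand in capitals. NUSAP1 lies at chr15:41332631-41332930 on the plus strand, ZWINT at chr10:56361210-56361509 on the minus strand, BUB1B at chr15:40160819-40161118 on the plus strand and ESPL1 at chr12:53268049-53268348 on the plus strand. Each is written 5′ to 3′ in the direction of the gene.
NUSAP1: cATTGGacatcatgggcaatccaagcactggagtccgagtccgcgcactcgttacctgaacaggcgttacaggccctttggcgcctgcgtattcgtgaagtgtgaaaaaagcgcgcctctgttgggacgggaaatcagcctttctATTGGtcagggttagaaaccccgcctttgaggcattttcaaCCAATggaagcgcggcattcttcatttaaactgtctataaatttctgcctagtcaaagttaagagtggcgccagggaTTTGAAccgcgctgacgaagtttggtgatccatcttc
ZWINT: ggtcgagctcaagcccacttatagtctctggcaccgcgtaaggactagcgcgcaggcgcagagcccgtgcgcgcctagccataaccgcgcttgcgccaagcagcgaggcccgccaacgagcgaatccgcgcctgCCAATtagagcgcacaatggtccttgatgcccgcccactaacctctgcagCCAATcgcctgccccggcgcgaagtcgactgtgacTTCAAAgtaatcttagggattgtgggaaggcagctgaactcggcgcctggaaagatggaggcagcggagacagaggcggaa
BUB1B: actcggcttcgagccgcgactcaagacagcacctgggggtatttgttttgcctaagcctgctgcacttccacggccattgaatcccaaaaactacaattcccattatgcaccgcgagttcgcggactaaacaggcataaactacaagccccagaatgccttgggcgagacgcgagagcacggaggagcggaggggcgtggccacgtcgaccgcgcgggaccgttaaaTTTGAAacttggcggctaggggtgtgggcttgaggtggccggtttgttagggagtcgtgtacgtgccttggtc
ESPL1: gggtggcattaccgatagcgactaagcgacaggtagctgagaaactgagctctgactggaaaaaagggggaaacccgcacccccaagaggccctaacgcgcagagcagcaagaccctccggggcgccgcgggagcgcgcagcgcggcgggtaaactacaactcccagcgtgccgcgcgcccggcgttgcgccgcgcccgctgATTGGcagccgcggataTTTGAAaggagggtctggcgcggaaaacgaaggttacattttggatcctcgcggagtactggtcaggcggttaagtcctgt
The CHR match began 31 bases before the start in ZWINT, 23 bases before it in BUB1B and 31 bases before it in ESPL1, and at base 14 after it in NUSAP1. ZWINT has another window, not printed, in which the same match began 17 bases before the start. The BUB1B window held no CCAAT match, and the nearest CCAAT match in ESPL1 began 48 bases before the start.

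The comparison asked which of these genes differed between NS398-treated and control cells. Values are linear probe set signals, and group means are geometric means of 3 arrays. Differences (NS398 minus control) are in log2 units and carry the standard error (SE) of the limma fit. Where a gene had several probe sets, the one with the highest mean signal was taken. A gene passed the test when its adjusted p (limma with a variance trend, Benjamini-Hochberg over all 54675 probe sets) was under 0.05. Directions follow the deposited labels, and for many of these genes they are opposite to the directions given by the study. Which of the 2 is right was not settled here, and if the group labels had been exchanged, each difference below would change its sign.

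Of the 53 genes, 46 fell in NS398 cells (86.8%), against 4.85% of all genes, and 8.66% of the genes with a mean log2 signal above 7. None rose, and none had an unadjusted p under 0.05 in the higher direction by the limma test with or without the variance trend. The difference was below 0 in all 53, against 8954 of all 19775 genes. It lay between -2.09 in BIRC5 and -0.05 in MIS12, with a median of -1.47, against 0.06 over all genes. In 41 of the 53 the signal was at least 2-fold lower in NS398 cells, against 1344 of all 19775 genes. The arrays of the groups did not overlap in 50 of 53 genes (94.3%), against 13.5% of all genes that were lower without overlap. With the plain limma test, which shares 1 prior variance among bright and dim probe sets, 0 of the 53 passed, against 0.0101% of all genes that passed in the lower direction (2 of 19775) and 15 genes in either direction. In this test 48 of the 53 had an unadjusted p under 0.05, all in the lower direction, against 7.48% of all genes. An unadjusted p under 0.05 in the plain test together with a 2-fold difference was met by 41 of 53 genes in the lower direction, against 2.94% of all genes. Across the 53 genes the correlation of the difference with the mean log2 signal was 0.02 by Pearson's r and -0.02 by Spearman's rho, a description only, since the genes share the arrays.

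**Figure D1:**
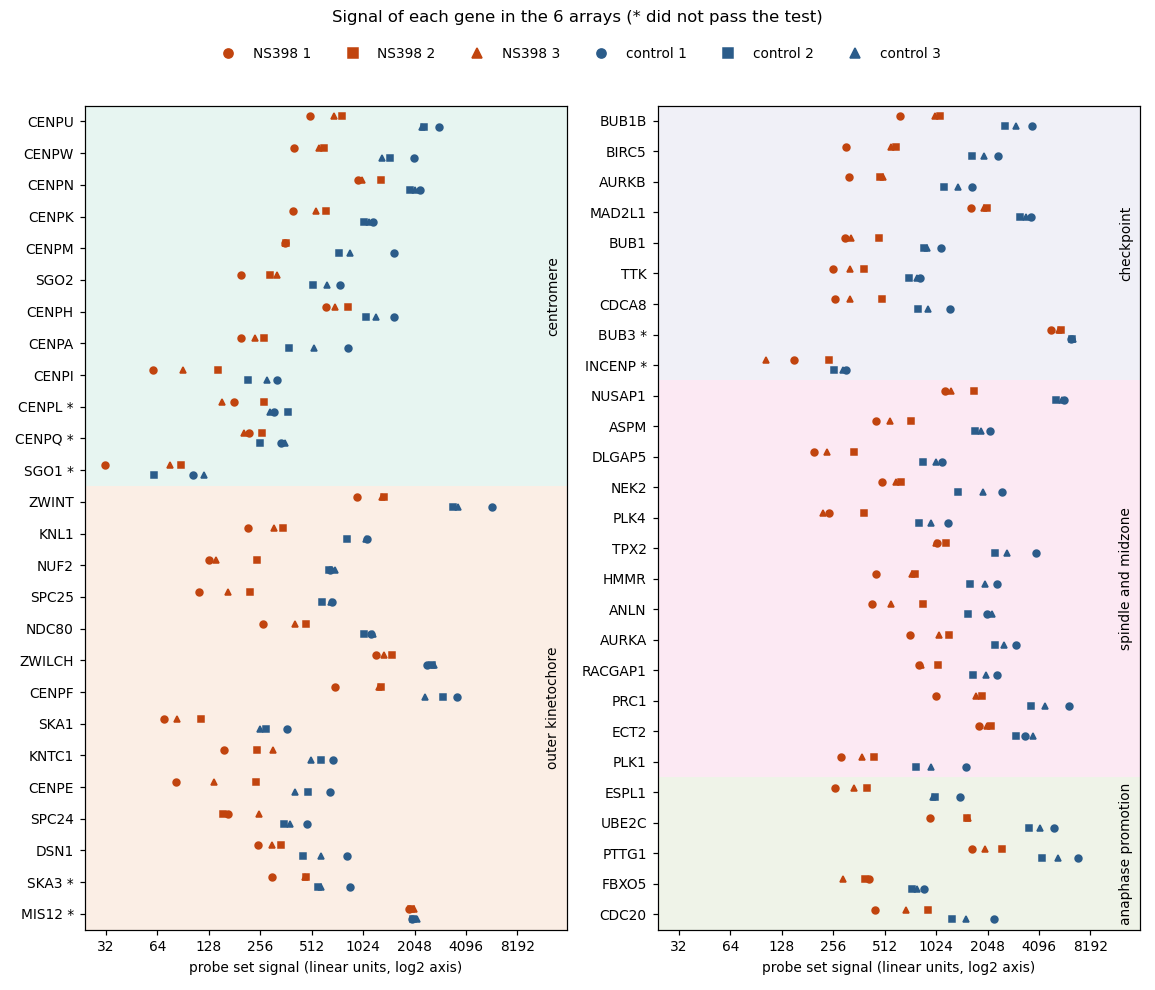
Signals of the 53 genes in each array, grouped by role, with NS398 arrays in red above control arrays in blue, on a log2 axis of linear signal units. The NS398 points lie left of the control points without overlap in 50 genes, and the 7 genes with an asterisk did not pass the test.

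**Figure D2:**
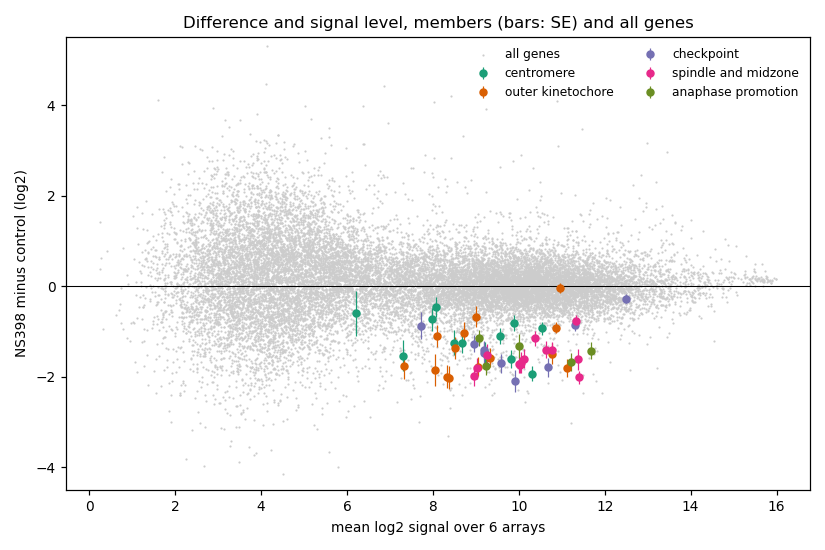
Log2 difference, NS398 minus control (points, with SE as bars), against the mean log2 signal, for the 53 genes coloured by role and for all 19775 genes in grey. All 53 lie below 0, with a median of -1.47, against 0.06 over all genes.

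At the centromere 9 of 12 genes fell, with a median difference of -1.18. CENPU, a subunit of the inner network that helps to recruit PLK1, had signals of 503.9, 770.3 and 691.1 in the NS398 arrays, against 2829.8, 2327.6 and 2276.2 in the control arrays. Every NS398 array lay far below every control array, a 3.82-fold lower mean (-1.93 ± 0.17, adjusted p = 9.86e-05). CENPW, a histone fold partner of CENPT, had signals of 401.7, 607.7 and 566.4 in NS398 cells, against 2023.9, 1479.0 and 1319.4 in control cells (-1.61 ± 0.20, adjusted p = 0.000837). The first control array was the highest and the first NS398 array the lowest. CENPN, which reads the CENPA nucleosome, had signals of 950.8, 1300.4 and 1014.4 in NS398 cells, against 2216.3, 1914.3 and 2056.7 in control cells. The groups were separate at a smaller distance, 1.91-fold (-0.93 ± 0.14, adjusted p = 0.00289).

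The 6 other centromere genes that fell had differences between -1.54 and -0.82. CENPI, CENPH and CENPK, which form 1 subcomplex of the inner network, differed by -1.54, -0.82 and -1.10. CENPM, which joins this subcomplex, differed by -1.47 ± 0.24. CENPA itself was 2.38-fold lower in NS398 cells (-1.25 ± 0.27, adjusted p = 0.0198), by a probe set naming it alone. SGO2, a shugoshin that protects centromeric cohesin, differed by -1.25.

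Of the 3 centromere genes that did not pass, CENPL, the partner of CENPN, had signals of 179.9, 269.7 and 152.7 in NS398 cells, against 309.5, 374.0 and 292.5 in control cells (-0.73 ± 0.25, adjusted p = 0.129). Its groups did not overlap, and its other probe set passed (-1.01 ± 0.22, adjusted p = 0.0188). CENPQ, the partner of CENPU, had signals of 219.8, 261.5 and 205.3 in NS398 cells, against 340.0, 255.4 and 357.4 in control cells (-0.47 ± 0.22, adjusted p = 0.29). The second NS398 array lay above the second control array, so the groups overlapped. SGO1, the mitotic shugoshin, was dim, at 31.7, 88.2 and 76.4 in NS398 cells, against 102.9, 61.0 and 119.3 in control cells. The groups overlapped and the difference was close in size to its error (-0.60 ± 0.49, adjusted p = 0.586).

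In the outer kinetochore 12 of 14 genes fell, with a median difference of -1.54. ZWINT, which links KNL1 to the dynein-recruiting RZZ complex, had signals of 946.3, 1361.3 and 1327.0 in NS398 cells, against 5788.6, 3423.3 and 3682.1 in control cells. The lowest control array was more than double the highest NS398 array, and the mean was 3.50-fold lower in NS398 cells (-1.81 ± 0.20, adjusted p = 0.000456). KNL1, the scaffold on which the checkpoint kinase BUB1 docks, had signals of 217.1, 349.8 and 307.9 in NS398 cells, against 1080.7, 824.6 and 1069.1 in control cells (-1.78 ± 0.21, adjusted p = 0.000555). NUF2 had signals of 129.1, 244.0 and 141.6 in NS398 cells, against 657.0, 642.8 and 704.7 in control cells (-2.02 ± 0.25, adjusted p = 0.000725). The control arrays of NUF2 lay close together, and the second NS398 array was the highest of its group.

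All 4 subunits of the Ndc80 complex passed. NUF2 and SPC25 differed by -2.02 and -2.00, NDC80 by -1.58 ± 0.21 and SPC24 by -1.10 ± 0.24, and differences between subunits were not tested. CENPE, the kinesin that carries chromosomes to the metaphase plate, differed by -1.86 ± 0.35, and CENPF, a large kinetochore protein of G2 and M phase, by -1.50 ± 0.23. Of the RZZ complex, KNTC1 differed by -1.37 ± 0.25 and ZWILCH by -0.92 ± 0.12. SKA1, of the complex that tracks microtubule ends with Ndc80, differed by -1.76 ± 0.29. DSN1, of the Mis12 complex, differed by -1.03 ± 0.23 with the weakest call of the group (adjusted p = 0.0226).

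The 2 outer kinetochore genes that did not pass were SKA3 and MIS12. SKA3, the partner of SKA1, had signals of 299.0, 476.8 and 469.2 in NS398 cells, against 856.2, 557.3 and 579.6 in control cells. The groups came close without overlap (-0.68 ± 0.23, adjusted p = 0.124). MIS12 had signals of 1897.1, 1947.2 and 2022.8 in NS398 cells, against 1967.6, 1999.3 and 2107.0 in control cells. Its groups overlapped, and the difference of -0.05 ± 0.11 was the smallest of the 53 (adjusted p = 0.866). NSL1 and PMF1, the partners of MIS12 and DSN1 and not on the list of 54, differed by -0.49 ± 0.11 (adjusted p = 0.0196) and -0.42 ± 0.12 (adjusted p = 0.0538), and the differences among these 4 subunits were not tested.

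Of the checkpoint genes, which here take in the chromosomal passenger complex, 7 of 9 fell, with a median difference of -1.41. BUB1B (BubR1), which holds CDC20 in the mitotic checkpoint complex, had signals of 631.7, 1079.0 and 1012.5 in NS398 cells, against 3742.6, 2590.6 and 2995.9 in control cells. The groups lay far apart, with a 3.48-fold lower mean in NS398 cells (-1.80 ± 0.21, adjusted p = 0.00049). BIRC5 (survivin) had signals of 303.0, 592.5 and 556.9 in NS398 cells, against 2369.9, 1663.0 and 1961.6 in control cells. This was the largest difference of the 53 genes, 4.26-fold (-2.09 ± 0.24, adjusted p = 0.000522). AURKB, the kinase of the passenger complex that corrects faulty attachments, had signals of 316.2, 478.2 and 501.0 in NS398 cells, against 1662.0, 1141.1 and 1380.4 in control cells (-1.70 ± 0.21, adjusted p = 0.000705).

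The kinases BUB1 and TTK (Mps1), which start the checkpoint signal, differed by -1.41 ± 0.20 and -1.28 ± 0.19. MAD2L1 (Mad2), the inhibitor that changes fold to bind CDC20, differed less, by -0.87 ± 0.12 (adjusted p = 0.00159), and CDCA8 (borealin), of the passenger complex, by -1.48 ± 0.24. INCENP, the scaffold of that complex, had signals of 150.9, 241.4 and 103.2 in NS398 cells, against 304.5, 259.0 and 293.6 in control cells. The groups came close at the second NS398 array, and the gene did not pass (-0.87 ± 0.30, adjusted p = 0.13).

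BUB3, the adaptor that brings BUB1 and BUB1B to KNL1, had signals of 4842.2, 5515.4 and 5386.4 in NS398 cells, against 6262.8, 6355.2 and 6436.2 in control cells. The groups did not overlap, but the mean was only 1.21-fold lower in NS398 cells and did not pass (-0.28 ± 0.09, adjusted p = 0.126). Of the 6 probe sets of BUB3, 1 passed (-0.52 ± 0.10, adjusted p = 0.0132), the 3 other bright ones lay between -0.30 and -0.28, and the 2 dim ones had errors of 0.84 and 0.88.

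All 13 genes of the spindle and midzone fell, with a median difference of -1.62. NUSAP1, which bundles microtubules around chromosomes, had signals of 1152.5, 1709.8 and 1252.1 in NS398 cells, against 5712.1, 5158.5 and 5568.8 in control cells. The control arrays lay within a narrow range and the NS398 mean was 4.05-fold lower, the smallest p of the 53 (-2.02 ± 0.15, adjusted p = 3.05e-05, and 0.0706 by plain limma). ASPM, a spindle pole protein, had signals of 453.4, 725.2 and 548.9 in NS398 cells, against 2127.9, 1730.4 and 1862.0 in control cells (-1.75 ± 0.18, adjusted p = 0.000264). DLGAP5 (HURP), which stabilises kinetochore fibres, had signals of 197.9, 338.4 and 234.9 in NS398 cells, against 1109.9, 863.7 and 1022.3 in control cells (-1.99 ± 0.21, adjusted p = 0.000348). In all 3 genes the second NS398 array was the highest of its group and the first control array the highest of all.

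The mitotic kinases of this group fell together, PLK4, which licenses centriole duplication, by -1.82 ± 0.23, NEK2, which parts the centrosomes, by -1.72 ± 0.20, PLK1 by -1.52 ± 0.25 and AURKA by -1.40 ± 0.19. TPX2, the activator of AURKA on the spindle, differed by -1.41 ± 0.18, and HMMR, a spindle assembly factor, by -1.61 ± 0.21. At the midzone, PRC1, which cross-links antiparallel microtubules, differed by -1.62 ± 0.23, and ANLN, the scaffold of the contractile ring, by -1.69 ± 0.23. RACGAP1, of centralspindlin, differed by -1.15 ± 0.16, and ECT2, the exchange factor that activates RhoA, by -0.77 ± 0.12, the smallest difference of the 13.

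All 5 genes of anaphase promotion fell, with a median difference of -1.43. ESPL1 (separase), the protease that cuts cohesin, had signals of 260.4, 404.9 and 340.3 in NS398 cells, against 1403.4, 1003.6 and 981.6 in control cells (-1.76 ± 0.21, adjusted p = 0.000599). UBE2C, the ubiquitin-conjugating enzyme of the APC/C, had signals of 944.3, 1552.4 and 1578.4 in NS398 cells, against 5032.4, 3602.7 and 4148.6 in control cells (-1.67 ± 0.20, adjusted p = 0.000604). In both genes the highest NS398 array lay below the lowest control array by more than 2-fold. PTTG1 (securin), the inhibitor of separase, had signals of 1658.8, 2479.3 and 1969.8 in NS398 cells, against 6923.0, 4268.7 and 5322.3 in control cells (-1.43 ± 0.18, adjusted p = 0.00102). Near-identical copies of PTTG1 exist and its probe set may bind their transcripts too, so this value is uncertain. CDC20, the activator of the APC/C, differed by -1.33 ± 0.26 (adjusted p = 0.0112), and FBXO5 (EMI1), its interphase inhibitor, by -1.14 ± 0.18 (adjusted p = 0.00309). Both the activator and this inhibitor of the APC/C were lower in the same samples.

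The members' other probe sets were examined as well. Of all 100 probe sets, 68 were lower by the test and none higher, against 3.17% of all probe sets that were lower. Among the 79 with a mean log2 signal above 7, which is a signal of 128, all 79 differences were below 0 and 67 passed. Among the 21 at or below this level, 1 passed, a probe set of PLK4 (-2.02 ± 0.45, adjusted p = 0.0208). The 4 probe sets with a difference above 0, of AURKA, BUB1, CENPN and KNL1, all belonged to the 15 with a mean log2 signal of 6 or less. Of these 15 none passed and 2 had an unadjusted p under 0.05, both in the lower direction. No gene had probe sets that passed in opposite directions. All 3 probe sets of CENPU (-1.93, -1.87 and -1.66) and all 3 of PLK4 (-1.82, -1.50 and -2.02) passed. In other genes, such as KNL1, ASPM and CENPI, only the brightest probe set passed. The next brightest of KNL1 differed by -1.15 ± 0.38 (adjusted p = 0.106). In BIRC5, 3 of 4 passed (-2.09, -1.95 and -2.02) and the fourth differed by -0.69 ± 0.26.

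**Figure D3:**
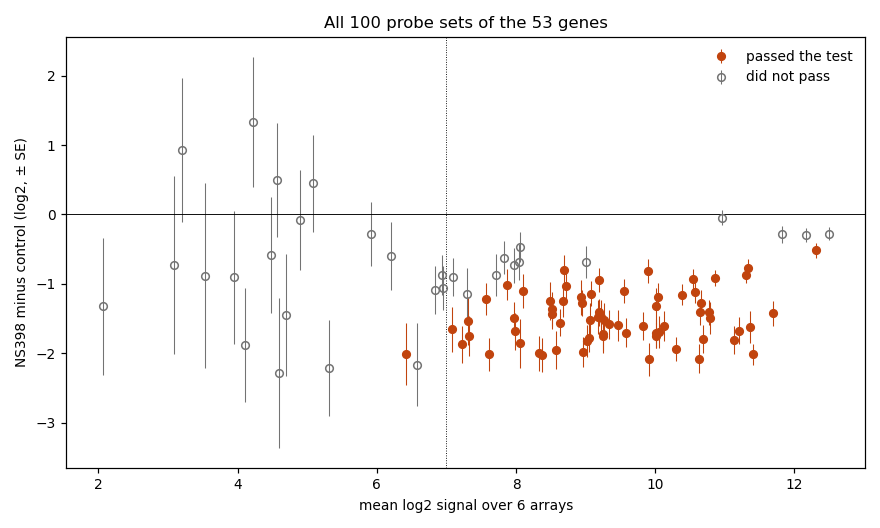
Log2 difference (NS398 minus control, SE as bars) against mean log2 signal for the 100 probe sets of the 53 genes. The dotted line marks a mean log2 signal of 7, above which all 79 probe sets lie below 0 and 67 passed the test.

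The genes moved together across single arrays. Relative to each gene's control mean, the median over the 53 genes was -1.87, -1.15 and -1.45 in NS398 arrays 1, 2 and 3, against 0.25, -0.20 and -0.02 in control arrays 1, 2 and 3. The first NS398 array was the lowest of the 6 in 46 genes (86.8%), against 19.2% of all genes and 65.2% of all genes that fell. The first control array was the highest in 43 genes (81.1%), against 18.6% of all genes and 48% of all genes that fell. Without both of these arrays, an alternative added after this pattern was seen, 40 of 53 genes passed and the median difference was -1.11. The same order of arrays was seen in each of the role groups.

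**Figure D4:**
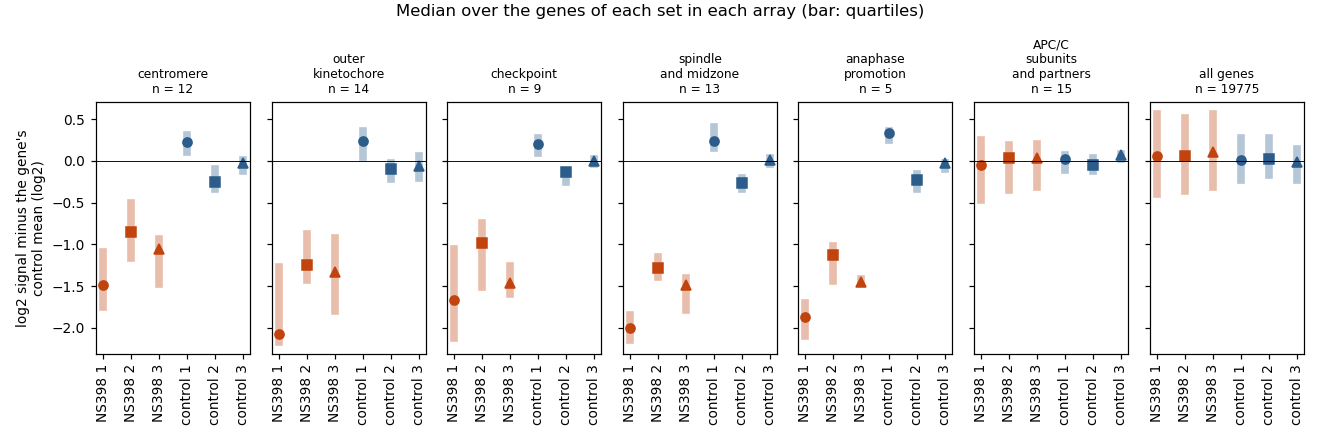
Median over the genes of each set, in each array, of the log2 signal minus the gene's control mean (points, with the quartiles over genes as bars), NS398 arrays in red and control arrays in blue. In the 5 role groups the NS398 medians lie below every control median, lowest in the first NS398 array, while the APC/C subunits and all genes stay near 0.

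Control probe sets of the arrays were set beside these values. For ACTB, the 3′ signal divided by the 5′ signal, which reads RNA integrity and labelling, was 1.45, 1.51 and 1.71 in the NS398 arrays, against 1.27, 1.33 and 1.28 in the control arrays. The ACTB ratio was thus higher in every NS398 array than in any control array. For GAPDH it was 1.07, 1.04 and 1.21 in the NS398 arrays, against 0.969, 1.08 and 1.04 in the control arrays, and the groups overlapped. The signal of 18S ribosomal RNA was 23625.3, 12396.9 and 4825.4 in the NS398 arrays, against 3453.4, 3782.8 and 4856.4 in the control arrays. It was highest in the first NS398 array, in which the members were lowest. In the third NS398 array it lay within the control range, and the ACTB and GAPDH ratios were the highest of all arrays. The members' medians were -1.87, -1.15 and -1.45 in NS398 arrays 1, 2 and 3. The part of RNA quality in these results was not tested. Median signals of the arrays were 76.0 to 80.2 in NS398 cells and 65.0 to 80.1 in control cells. The epithelial markers EPCAM, KRT8, KRT18, KRT19 and CDH1 were bright in all arrays, and CDX1 and CDX2, intestinal transcription factors, were dim. Of 8 such markers VIL1 fell (-0.71 ± 0.13), and 4 had a difference above 0. KRT19 (-0.39 ± 0.17) and CDH1 (-0.21 ± 0.09) had an unadjusted p under 0.05 in the variance trend test but did not pass. None of 9 leukocyte, fibroblast and endothelial markers passed the test, none had an unadjusted p under 0.05, and their median signal was 22.6. COL1A1 (212.9 to 477.4) and PECAM1 (116.7 to 235.2) were brighter than the rest in all arrays.

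Other genes of the same machinery, 77 with a probe set of their own, were then set beside the members. Of these, 32 fell (41.6%), against 4.85% of all genes, and none rose, with a median difference of -0.39. In the higher direction 4 had an unadjusted p under 0.05, against 2609 of all 19775 genes. The count of genes that fell was 17 without the first NS398 array, 20 without the third NS398 array and 16 without the third control array. With the plain limma test it was 0, and 35 had an unadjusted p under 0.05, all in the lower direction, against 7.48% of all genes. The share that fell was thus smaller than among the members, a difference that was not tested.

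Among other centromere and kinetochore genes 9 of 17 fell (52.9%), against 4.85% of all genes, with a median of -0.61. SKA2, the third subunit of the SKA complex, had signals of 627.2, 899.5 and 882.7 in NS398 cells, against 2634.2, 2441.5 and 2513.7 in control cells (-1.67 ± 0.15, adjusted p = 0.000135). SPAG5 (astrin) differed by -1.96 ± 0.21 (adjusted p = 0.000317), and OIP5, of the Mis18 complex that prepares centromeres for new CENPA, by -1.70 ± 0.20 (adjusted p = 0.000556). HJURP, the chaperone that deposits CENPA, was also lower, with signals of 202.8, 483.6 and 329.2 in NS398 cells, against 1788.8, 1110.6 and 1192.9 in control cells (-2.07 ± 0.29, adjusted p = 0.00165). It was named after its values were seen, as were NSL1 and PMF1.

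Among other checkpoint genes 3 of 9 fell (33.3%), against 4.85% of all genes. TRIP13, the ATPase that remodels Mad2, had signals of 756.4, 1140.2 and 1055.2 in NS398 cells, against 2853.4, 2160.7 and 2258.9 in control cells (-1.31 ± 0.17, adjusted p = 0.00114). CDCA2, a phosphatase-targeting protein of chromosomes, differed by -1.17 ± 0.23, and HASPIN, the kinase whose histone mark recruits the passenger complex, by -0.99 ± 0.24. Among other spindle and cytokinesis genes 12 of 23 fell (52.2%), with a median of -0.47. CKAP2, a microtubule stabiliser, differed by -1.14 ± 0.13 (adjusted p = 0.000609), TACC3, of the kinetochore fibre, by -1.43 ± 0.17 (adjusted p = 0.000719), and CEP55, which directs the last cut between daughter cells, by -1.75 ± 0.21 (adjusted p = 0.000743).

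Of 15 subunits and partners of the APC/C 3 fell (20%), against 4.85% of all genes, and the median difference was 0.05. UBE2S, the enzyme that extends ubiquitin chains on APC/C substrates, had signals of 3469.5, 4319.4 and 4283.7 in NS398 cells, against 8448.0, 5867.5 and 7038.6 in control cells (-0.81 ± 0.14, adjusted p = 0.00581). The small core subunits ANAPC11 and CDC26 differed by -0.50 ± 0.09 (adjusted p = 0.00645) and -0.45 ± 0.11 (adjusted p = 0.0296). In 8 of the 15 the difference was above 0, against 10821 of all 19775 genes, and none of these passed. In the higher direction 3 of the 15 had an unadjusted p under 0.05 in the variance trend test, against 2609 of all 19775 genes. They were ANAPC16 (0.34 ± 0.10, adjusted p = 0.0697), CDC16 (0.28 ± 0.10, adjusted p = 0.144) and ANAPC5 (0.27 ± 0.10, adjusted p = 0.166). These 3 were named after their values were seen. FZR1 (CDH1), the activator of the APC/C after CDC20, had 381.6, 455.6 and 607.6 in NS398 cells, against 497.0, 531.7 and 547.6 in control cells, and the groups overlapped. It was named after its values were seen.

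Of 13 regulators of mitotic gene transcription 5 fell (38.5%), against 4.85% of all genes. MYBL2 (B-Myb), which joins MuvB at CHR promoters, had signals of 207.1, 342.0 and 339.7 in NS398 cells, against 2244.8, 1279.8 and 1229.7 in control cells. The difference was larger than in any of the 53 members (-2.40 ± 0.26, adjusted p = 0.000375). FOXM1, the forkhead factor recruited with it, had signals of 234.1, 492.1 and 439.9 in NS398 cells, against 1511.5, 1131.8 and 1279.6 in control cells (-1.81 ± 0.25, adjusted p = 0.00165). TFDP1, the dimer partner of E2F factors, differed by -0.70 ± 0.11 (adjusted p = 0.003). The other 2 that fell were RBBP4, a histone-binding subunit of MuvB, and TFDP2, both named outside the rule of the 3 smallest p. The median difference of the 13 was -0.39, and 6 lay above 0, against 10821 of all 19775 genes. LIN9 (-0.39), LIN37 (0.13), LIN52 (0.21), LIN54 (0.18), RBL1 (-0.62), RBL2 (0.18) and E2F5 (0.12) did not pass. These too were named outside that rule. E2F4, the E2F of the repressive DREAM complex, had the highest difference of the 13, 0.40 ± 0.17, and did not pass (adjusted p = 0.228); it was named after its values were seen.

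**Figure D5:**
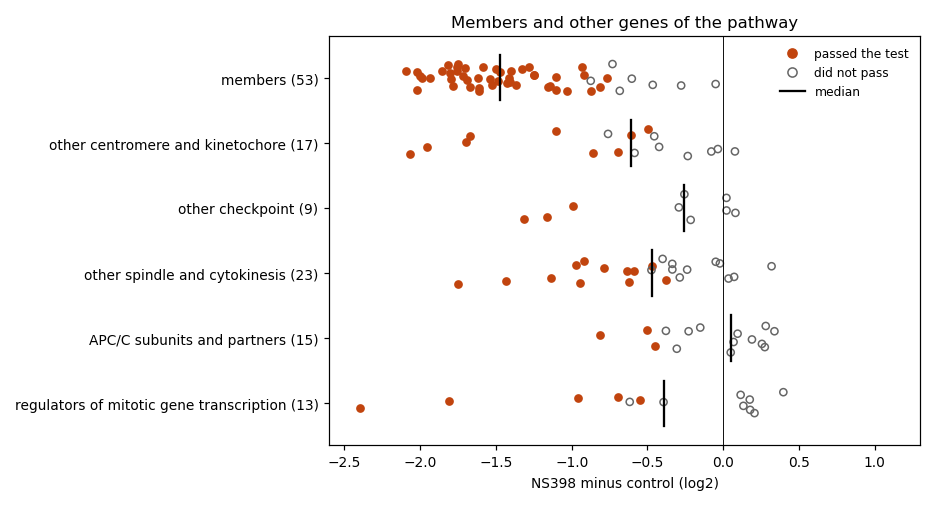
Difference NS398 minus control on the log2 scale for the 53 members and for 77 other genes of the pathway in 5 lists (numbers of genes in brackets), filled where the gene passed the test, with the median of each list as a line. The members' median is -1.47, while the APC/C list has a median of 0.05.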

How the data were processed

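RNA of 3 NS398-treated and 3 control samples of HT29 cells was hybridised to 6 HG-U133 Plus 2.0 arrays, 1 each, and groups were taken from the treatment labels. The deposited files hold linear intensity, a signal for each probe set and array that the authors summarised and scaled before deposit. Their trimmed mean is 500 in every array and their distributions differ, unlike the quantile-normalised gcRMA values that the study's methods describe. Of tools, the submitters' notes name affy, and its version is not given in the sources used here. Without read depth, the number of arrays and the noise of dim signals limit precision.

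The log2 of each signal was taken and no further normalisation was applied. Each probe set was tested with limma (version 3.58.1, R 4.3.3), eBayes with trend and robust estimation, treatment as the only term and Benjamini-Hochberg adjustment over 54675 probe sets, at a threshold of 0.05. This was done in place of SAM, the statistic in the study's methods. The median prior degrees of freedom were 7.07, against 1.36 in the plain fit. Of 54675 probe sets, 41097 name 1 gene, 1801 several and 11777 none. Those naming several genes were left out of gene values. The procedure was tested on simulated data whose spread followed the signal level, with differences planted only above a mean log2 signal of 7. Such data share the assumption of the variance trend test, so they cannot decide between it and plain limma.

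The members, lists and tests were chosen with earlier results of these data known. Values in every array were given for the 3 genes with the smallest p in each role group and for those that did not pass. From each other list up to 3 genes were named by the smallest p, and genes outside this rule are marked in the text. Alternatives were plain limma, median centring, quantile normalisation, filters on dim probe sets, an offset of 32, array weights, the mean of a gene's probe sets, the replicate block and leaving out arrays. The plots were made in Python 3.11.15 with matplotlib 3.10.9.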

Additional observations from a re-analysis of the deposited data

How the results depend on the processing

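With plain limma, 0 of the 53 genes passed, and 0 in each role group, among the 100 probe sets and among the 77 other genes of the pathway. Under median centring, quantile normalisation, both filters on dim probe sets, the offset of 32 and array weights, 46 of the 53 genes passed in each. The filter at a mean log2 signal of 7 removed SGO1, which was not tested there. With the mean of a gene's probe sets 40 passed. Leaving out 1 array in turn gave 41 to 46 genes, 57 to 67 probe sets, 6 to 9 centromere genes, 10 to 12 outer kinetochore genes and a median difference of -1.61 to -1.28. Without both arrays numbered 1, an alternative chosen after seeing the data, 40 genes and 56 probe sets passed, and the median difference was -1.11. No member turned its direction in any of these alternatives, and 35 of the 46 genes that fell passed in every alternative that kept the variance trend. CENPI, DSN1 and SPC24 passed in 9 of these 15, and CENPL, of the 7 that did not pass, passed in 1. The other genes of the pathway were less stable. Their count of 32 was 12 with an unadjusted p under 0.05 and 2-fold, 20 with the mean of probe sets, 21 without both arrays numbered 1, and 16 to 27 when 1 array was left out. The labels give both groups the numbers 1 to 3, but same-numbered arrays did not deviate together (correlations of -0.14, -0.06 and -0.10 over bright probe sets). With the replicate block, 45 of the 53 genes, 66 probe sets and 23 other genes passed. Dim probe sets limit what can be seen.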
